A study of Mus musculus with 8 samples.

Results

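The heparan sulfate chain synthesis enzymes examined here are 10 genes: the exostosins and exostosin-like genes Ext1, Ext2, Extl1, Extl2 and Extl3, the N-deacetylase/N-sulfotransferases Ndst1, Ndst2, Ndst3 and Ndst4, and the epimerase gene Glce. They were found by matching Ensembl identifiers to symbols, and all 10 were among the 37310 genes of the count table and among the 17913 that passed the low-count filter. The family was selected on the fold change of Extl1 between heterozygotes and wild types, which had been seen in these same data, and its other members were taken by function. In the GENCODE annotation Extl2, Ndst3 and Ndst4 lie on chromosome 3, Extl3 and Ndst2 on chromosome 14, Ext2 on chromosome 2, Extl1 on chromosome 4, Glce on chromosome 9 and Ext1 on chromosome 15. Because the family was selected on the comparison of genotypes, the genotype difference of all 10 members is described below and not tested. Tests are kept for levels across mice and for other genes of the pathway.

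RNA was measured in the hippocampus of 8 B6.129 F1-hybrid mice labelled male and 3 months old, 4 heterozygous for a knockout of Nr2f1 (HET) and 4 wild type (WT), with 1 library per mouse. The mice had received no treatment according to the labels, and the sources used here do not say how the Nr2f1 allele was made. RNA came from hippocampal tissue without sorting of cells, so each value is an average over all its cells, and a smaller number of cells of a type cannot be told apart from less RNA per cell. Nr2f1 encodes a nuclear receptor transcription factor, and the comparison asks what changes in the hippocampus when a copy is disrupted.

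Heparan sulfate is a long sugar chain attached to core proteins such as syndecans and glypicans on the cell surface and agrin and perlecan in the matrix. Chains are started on a short linker, lengthened in the Golgi by alternating glucuronic acid and N-acetylglucosamine, and then modified in patches that bind growth factors, guidance cues and synaptic adhesion proteins. In the nervous system such chains are known for roles in axon guidance and synapse assembly. Ext1 and Ext2 form the polymerase that lengthens the chain, the exostosin-like enzymes act at its start or add single sugars, the Ndst enzymes replace acetyl with sulfate on glucosamine, and Glce turns glucuronic into iduronic acid.

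Depth was high for every member. Libraries held 58717305 to 90043971 gene counts, and no member had fewer than 1002 counts in any library. Levels are given as CPM (read counts relative to library size, scaled by TMM normalisation), which sets libraries to a common scale through genes that differ little. Nr2f1 itself lay between 28.5 and 33.5 CPM in HET and between 49.5 and 54.1 CPM in WT libraries, so it followed the genotype labels (log2 fold change -0.73 ± 0.0511, SE; edgeR adjusted p = 7.32e-05). The label of sex was not matched: Xist lay between 463 and 601 CPM in the 8 libraries, and 14 Y-linked genes had 3 counts in total. Markers of hippocampal neurons were present in every library, with Prox1 of dentate granule cells at 48.3 to 65.0 CPM, Wfs1 of CA1 at 272 to 365 CPM and Grik4 of CA3 at 51.5 to 69.8 CPM. The CA1 marker Pou3f1 was listed at 0 throughout. Markers of neighbouring tissue were also measured. All 12 choroid plexus genes were higher in HET without overlap, beside 6.99% of all genes, while 0 of them passed the edgeR test, with 11 at an unadjusted p under 0.05. Their summed level was 84.5 to 2117 CPM in WT and 4109 to 4645 CPM in HET. All 6 ependymal genes were also higher without overlap. Of these 4 passed, beside 2.62% of all genes called higher. Their sum was 10.4 to 20.7 CPM in WT and 29.8 to 45.3 CPM in HET. Sums over 8 meningeal fibroblast genes were 97.5 to 244 CPM in WT and 327 to 387 CPM in HET, with 0 genes past the test. Most of this sum in HET was Igf2, at 43.1 to 156 CPM in WT and 229 to 271 CPM in HET. Only 4 of the 8 genes were higher in HET without overlap, beside 6.99% of all genes. For striatum they were 198 to 213.7 CPM in WT and 213.6 to 328 CPM in HET over 9 genes. For thalamus they were 153 to 184 CPM in WT and 171 to 234 CPM in HET over 9 genes. These sums overlapped, and 1 gene of each list passed, beside the same 2.62% of all genes. Taken singly, 6 striatal and 3 thalamic genes were higher in HET without overlap, beside 6.99% of all genes. DESeq2 called 5 striatal and 3 thalamic genes higher, beside 911 of all 17913 genes. The striatal sum holds Pde10a, at 111 to 117 CPM in WT and 104 to 134 CPM in HET. The part of these tissues in the results below was not tested.

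Extl1 (ENSMUSG00000028838.5), an exostosin-like gene whose product can add N-acetylglucosamine to chains, is the member whose difference the family was chosen on. Its level was 93.02, 93.2, 93.7 and 93.2 CPM in WT libraries 1 to 4 and 79.2, 82.6, 78.5 and 82.7 CPM in HET libraries 1 to 4. Every HET library lay below every WT library, and the highest HET value was 82.7 CPM against a lowest WT value of 93.02 CPM. The mean was 80.7 ± 2.22 CPM in HET and 93.3 ± 0.294 CPM in WT (SD, n = 4 each), or 86.6% of WT, with a log2 fold change of -0.21 ± 0.0313 (SE). The WT spread was tighter than counting alone would give, since the counts behind those means carry an SD of 1.06 CPM. The HET spread of 2.22 CPM was above its counting SD of 1.03 CPM. In Ext1 and Extl3 too the WT SD was under the counting SD, so for these 3 members it understates the error of a single library. No member had a HET SD under its counting SD.

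The difference in Extl1 was of similar size in most settings. Leaving out each library in turn gave log2 fold changes from -0.22 to -0.19. It was -0.24 among libraries 1 and 3 of each genotype and -0.17 among libraries 2 and 4. The count ratio of a pair of ERCC spike-ins was 1.20 to 1.28 in libraries 1 and 3. In libraries 2 and 4 that ratio was 0.165 to 0.186. A different spike-in mix in the 2 sets was inferred from this ratio and not read from the sample labels. The Extl1 difference was -0.21 without WT libraries 1 and 3, whose choroid plexus transcripts were the lowest. Scaling to spike-in RNA instead gave -0.11 ± 0.0929 (SE), while the median over all genes moved by 0.095 to 0.090, so that Extl1 stood at -0.20 from that median. In CA1 markers, Wfs1 lay at 272 to 299.5 CPM in HET against 308 to 365 CPM in WT, and Mpped1 at 209 to 247 CPM in HET against 256 to 264 CPM in WT. The part of CA1 cells or their RNA in the Extl1 difference was not tested.

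The promoter of Extl1 is shown because it is the member the genotype difference turns on and because the product of Nr2f1 binds DNA. Nuclear receptors of this family recognise the motif AGGTCA, often as a pair. The 250 bases before its RefSeq start site, chr4:134372548-134372797 on the minus strand of GRCm38.p6, hold no AGGTCA on either strand and are therefore all in lower case. A start site of Extl2, for comparison, has the motif in its window chr3:116008047-116008296 on the plus strand, at position -133 from the start, in capitals.
Extl1: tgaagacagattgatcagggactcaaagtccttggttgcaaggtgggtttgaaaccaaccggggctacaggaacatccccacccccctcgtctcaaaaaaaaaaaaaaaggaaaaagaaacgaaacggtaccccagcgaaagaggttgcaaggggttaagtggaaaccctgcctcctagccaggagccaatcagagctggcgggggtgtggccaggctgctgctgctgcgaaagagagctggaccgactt
Extl2: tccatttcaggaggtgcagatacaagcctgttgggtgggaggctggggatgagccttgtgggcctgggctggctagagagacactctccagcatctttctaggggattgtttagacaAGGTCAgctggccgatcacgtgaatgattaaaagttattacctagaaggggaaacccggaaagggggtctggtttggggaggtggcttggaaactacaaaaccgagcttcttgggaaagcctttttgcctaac
RefSeq gave 8 such windows for 6 members, and this Extl2 window was the 1 with the motif, against 14.0% of 32851 windows of this length for all genes. No member window held a direct repeat of the motif with 1 base between its copies, on either strand, which 11 of all windows did. These are matches of letters in a short stretch, and they say nothing of binding, here or elsewhere in these genes.

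Extl3 and Extl2 were the other exostosin-like genes, and their differences between genotypes were smaller. Extl3, whose product adds the first N-acetylglucosamine and so commits a linker to heparan sulfate, was at 158, 157, 158 and 159.9 CPM in WT libraries 1 to 4. In HET libraries 1 to 4 it was at 148, 158, 162 and 154 CPM, so the groups overlapped. The log2 fold change was -0.03 ± 0.0329 (SE). Extl2, which can transfer an amino sugar to the linker, was at 79.5, 75.0, 74.4 and 77.9 CPM in WT and 72.0, 70.9, 68.9 and 74.8 CPM in HET libraries. HET libraries 1 to 3 lay below all WT libraries and HET library 4 did not, for a log2 fold change of -0.10 ± 0.0368 (SE). With spike-in scaling Extl2 had a log2 fold change of 0.00088 and Extl3 of 0.071, so neither stood below 0 there.

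Ext1 and Ext2 encode partners of the same polymerase, and HET libraries were lower in Ext1 but not in Ext2. Ext1 was at 40.2, 40.7, 39.6 and 39.7 CPM in WT libraries 1 to 4 and at 35.6, 38.7, 33.7 and 35.1 CPM in HET libraries 1 to 4. All HET libraries were lower than all WT libraries, at 89.3% of WT with a log2 fold change of -0.16 ± 0.0443 (SE). HET library 2 came nearest to WT, and without it the log2 fold change was -0.20, while spike-in scaling gave -0.066 with all libraries. Ext2 was at 40.4, 42.8, 43.8 and 42.0 CPM in WT and 43.8, 42.9, 44.0 and 41.4 CPM in HET libraries. These ranges overlapped, with a log2 fold change of 0.02 ± 0.0385 (SE).

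Ratios inside a library do not depend on how libraries are scaled to each other. Per length of exon, the ratio of Ext1 to Ext2 was 0.860 ± 0.0347 in WT and 0.755 ± 0.0521 in HET (SD, n = 4 each). The lowest WT ratio, 0.8186 in library 3, met the highest HET ratio, 0.8195 in library 2, so the groups touched. For Extl1 to Extl3 the WT ratios were 0.815 to 0.832 and the HET ratios 0.679 to 0.749, without overlap. For Extl1 to Extl2 they were 0.931 to 1.001 in WT against 0.875 to 0.927 in HET, and for Extl1 to Ext2 3.61 to 3.90 in WT against 3.02 to 3.38 in HET. In all 3 ratios with Extl1 each HET library lay below each WT library, but they share the Extl1 values on which the family was chosen and are a description.

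The Ndst genes encode enzymes that remove acetyl groups and add sulfate to glucosamine, the step on which most later modification depends. Ndst1, the main form in most tissues, was at 134, 135, 131 and 133 CPM in WT and 129.9, 137, 131 and 135 CPM in HET libraries. The groups lay on top of each other, with a log2 fold change of -0.00091 ± 0.0310 (SE). Ndst2 was at 14.8, 17.5, 16.6 and 16.8 CPM in WT and 17.0, 16.9, 18.8 and 17.9 CPM in HET libraries. Its log2 fold change was 0.11 ± 0.0602 (SE), and WT library 1 was the lowest of the 8. Without that library it was 0.062, and within libraries 1 and 3 it was 0.20 against 0.025 within libraries 2 and 4.

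Ndst3 and Ndst4, forms known mainly from brain, had lower means in HET. Ndst3 was at 46.3, 39.8, 40.7 and 39.02 CPM in WT and 37.5, 37.0, 35.9 and 38.95 CPM in HET libraries. The groups did not overlap, narrowly so between WT library 4 and HET library 4. Its log2 fold change was -0.15 ± 0.0534 (SE), and -0.09 without WT library 1, the highest. Within libraries 1 and 3 it was -0.24, and within libraries 2 and 4 it was -0.05. Ndst4 was at 22.0, 24.3, 20.3 and 21.5 CPM in WT and 18.7, 18.9, 15.04 and 22.8 CPM in HET libraries. HET library 4 stood among the WT values and HET library 3 below all others. Ndst4 had the widest HET spread of the members, with a coefficient of variation of 16.8%, and a log2 fold change of -0.23 ± 0.112 (SE). Without HET library 4 that was -0.34 and without HET library 3 it was -0.13. Ndst3 and Ndst4 share few stretches: 7 of 9954 words of 50 bases from Ndst3 transcripts also occur in Ndst4, so little of their counts could be split between them.

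Among the Ndst transcripts, Ndst1 had the largest share in every mouse. Per length of exon, Ndst1 made up 62.1% to 62.8% of the Ndst level in WT and 62.4% to 64.6% in HET libraries. Ndst2 made up 12.5% to 14.7% in WT and 14.5% to 16.6% in HET. Ndst3 made up 15.4% to 18.0% in WT and 14.6% to 15.3% in HET, the 1 share of the 4 in which the genotypes did not overlap. Ndst4 made up 6.83% to 7.91% in WT and 5.17% to 7.44% in HET.

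**Figure D1:**
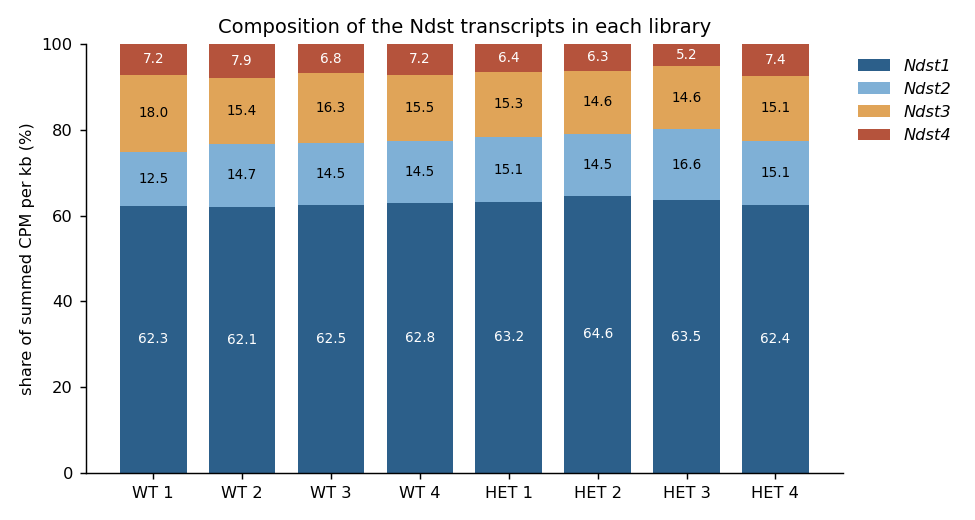
Share (y axis, percent) of each Ndst gene in the summed CPM per kb of exon of the 4 Ndst genes, 1 bar for each WT and HET library. By this length, Ndst1 takes 62.1% to 64.6% in all 8 libraries, and Ndst4 the smallest share in each. Per kb of coding sequence, the mean of Ndst2 was below that of Ndst4.

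Glce, which makes the iduronic acid that gives the chain its flexibility, showed no separation. It was at 34.4, 39.3, 35.9 and 33.1 CPM in WT and 32.7, 35.9, 37.7 and 32.4 CPM in HET libraries. Both groups covered nearly the same range, and the log2 fold change was -0.04 ± 0.0624 (SE). A microRNA gene listed on the same strand, Mir5133, covers 1.13% of its exon length, and no other member shares exon with another annotated gene.

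As a family, 8 members had a log2 fold change below 0 and 2 above it, beside 52.1% of all tested genes below 0. The median over the members was -0.068, beside -0.0056 over all genes tested. In 3 members, Ext1, Extl1 and Ndst3, the genotypes did not overlap and HET was lower, beside 3.59% of all genes; no member separated with HET higher, beside 6.99%. At an edgeR adjusted p of 0.05 over all genes 1 member, Extl1, was lower, beside 0.368% of all genes, or 2.99% in either direction. Extl1 was past that threshold in 16 of 18 other settings, and not with spike-in scaling. DESeq2 called 2 members lower, Ext1 and Extl1, beside 289 of all 17913 genes. These counts come from the comparison that put the family forward and are given as description alone. Their summed level was 654 to 665 CPM in WT and 615 to 639 CPM in HET. Without Extl1 the sum was 559.98 to 572 CPM in WT and 535 to 556 CPM in HET, still apart.

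**Figure D2:**
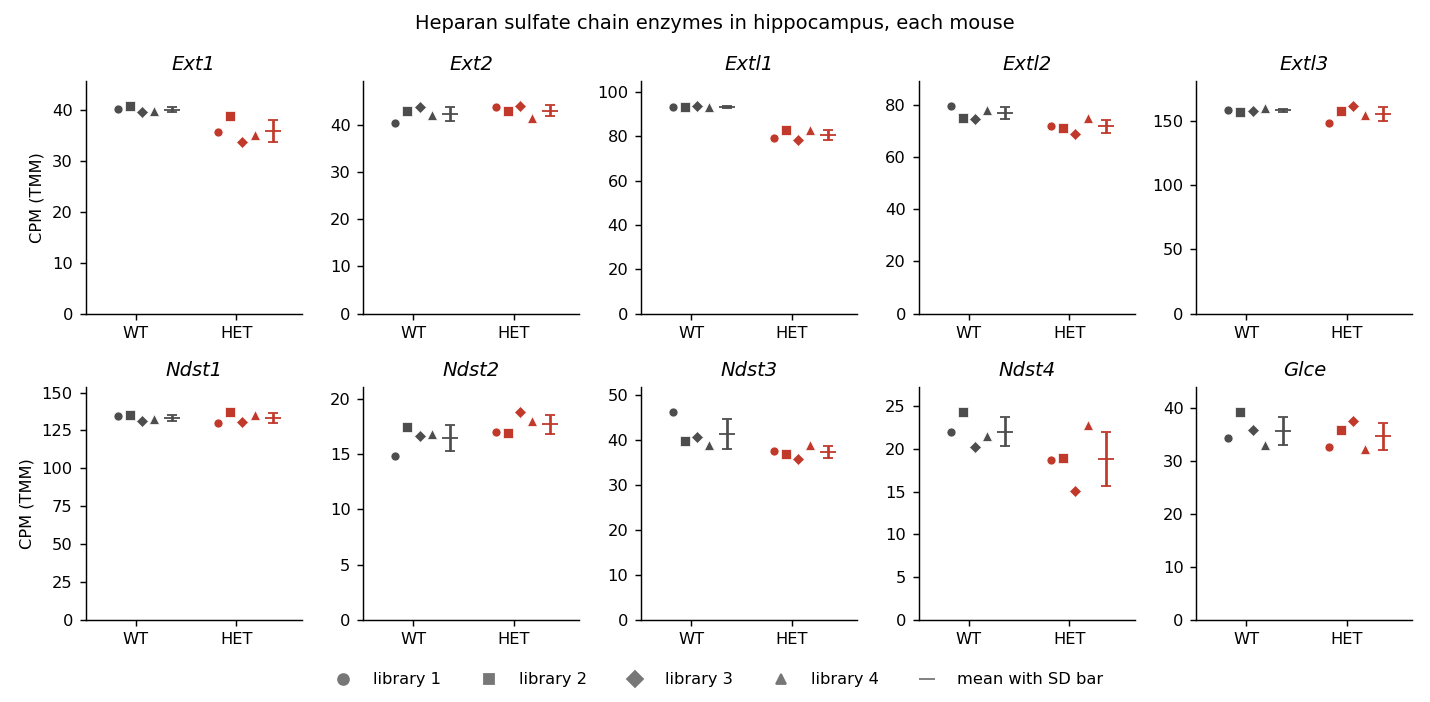
CPM (y axis, from 0) of each of the 10 members in the 4 WT (grey) and 4 HET (red) libraries, each library a symbol, with the mean and SD beside them. Extl1 sits at 93.02 to 93.7 CPM in WT and 78.5 to 82.7 CPM in HET, and 7 of the members overlap between genotypes.

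Spike-in scaling raised the median of all genes by 0.095, as given above. With it the median over the members turned to 0.027, with 6 members above 0, and lay -0.063 from the all-gene median under that scaling.

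**Figure D3:**
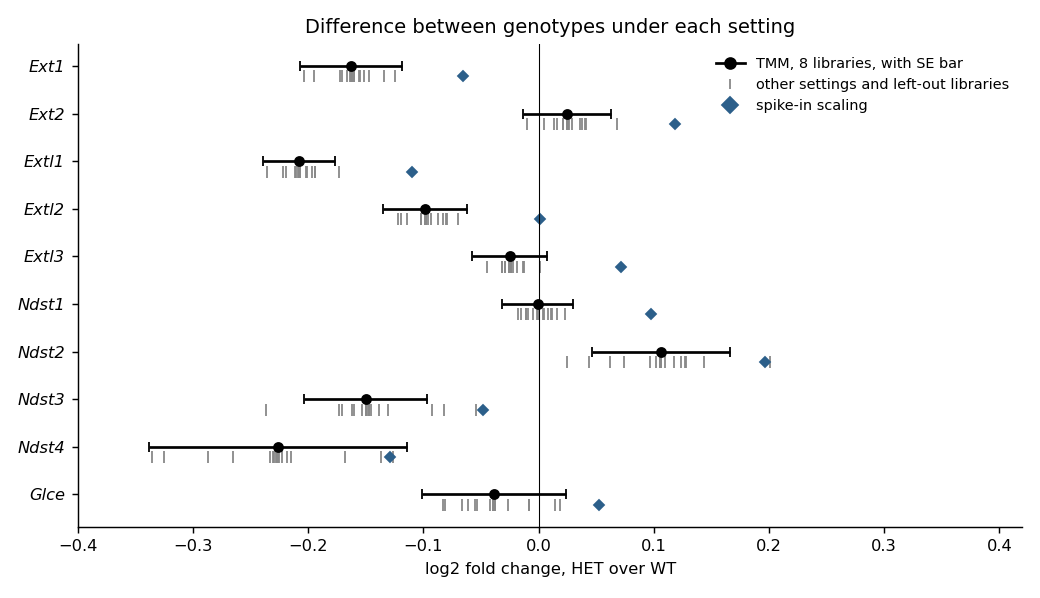
Log2 fold change of HET over WT (x axis) for each member with TMM scaling and all 8 libraries (black, bar: SE), under the other settings and left-out libraries (grey ticks) and with spike-in scaling (blue). Spike-in scaling moves every member to the right by about the same amount, and Extl2, Extl3, Ndst1 and Glce then lie above 0 while Ext1, Extl1, Ndst3 and Ndst4 stay below it.

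Levels of different genes were compared per length of exon, since a longer transcript gives more reads. This comparison joins both genotypes, so a member's genotype difference is part of its spread over the 8 mice. Steps that involve Extl1, on which the family was chosen, are given with no p-value. They enter only the adjustment and the counts over all steps. Extl3 was highest at 25.9 ± 0.672 CPM per kb of merged exon (SD, n = 8), then Extl2 at 21.5 ± 1.02, Extl1 at 20.1 ± 1.58 and Ndst1 at 16.1 ± 0.307. Below a wide gap followed Ext2 at 5.82 ± 0.177, Glce at 5.15 ± 0.362 and Ext1 at 4.69 ± 0.334 CPM per kb. Lowest were Ndst3 at 3.99 ± 0.322, Ndst2 at 3.75 ± 0.255 and Ndst4 at 1.74 ± 0.247 CPM per kb. All 3 exostosin-like genes were thus at a higher transcript level per length than the polymerase pair, and the highest member exceeded the lowest 14.8-fold.

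Neighbours in this order were compared over the 8 mice by an exact two-sided sign-flip permutation test, adjusted over the 9 neighbour pairs. Of the 7 pairs without Extl1, the higher gene exceeded its neighbour in 6 (adjusted p from 0.0117 to 0.0264, exact permutation test), and 0.00781 is the smallest unadjusted p that 8 mice allow. The widest step was from Ndst1 to Ext2, at 1.47 on the log2 scale and present in 8 of 8 mice. Glce exceeded Ext1 in 7 of 8 mice, with WT library 4 the exception at 4.84 against 4.91 CPM per kb. Extl2 was above Extl1 by 0.10 on the log2 scale over both genotypes, but in WT alone Extl1 stood at 0.931 to 1.001 of Extl2. By merged exon length, Ndst3 and Ndst2 did not differ beyond their spread, at 0.088 ± 0.205 on the log2 scale (SD, n = 8; exact permutation adjusted p = 0.281). The order rests on the lengths used. With coding length, 5 of the 9 steps passed in the same direction. Among these was Ndst3 over Ndst2, which had not passed by merged exon length. Other steps turned around by their means. Extl2 came first, at 74.9 CPM per coding kb, before Extl3 at 56.9. Likewise Ndst1 then stood above Extl1, Glce above Ext2 and Ndst4 above Ndst2.

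**Figure D4:**
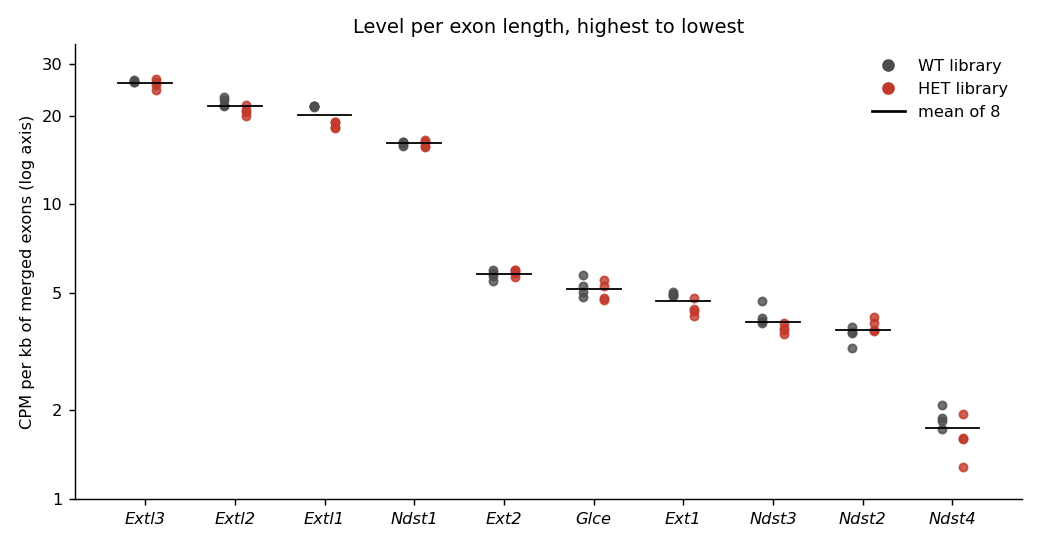
CPM per kb of merged exon (y axis, log scale) of each member in every WT (grey) and HET (red) library, with the mean of the 8 as a line. Extl3, Extl2, Extl1 and Ndst1 lie at 16.1 to 25.9 on average and the other 6 members at 1.74 to 5.82.

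Genes with the pattern nearest to Extl1 were found among 11134 genes by the root mean square difference of centred log2 CPM over the 8 libraries. They were Cemip, a gene of hyaluronan breakdown, at 0.0269, the prohormone convertase gene Pcsk2 at 0.0298, Ankrd45 at 0.0355, Zfp386 at 0.0362 and Rasip1 at 0.0386 on the log2 scale. Cemip was at 35.1 ± 0.873 CPM in HET and 39.8 ± 1.02 CPM in WT (SD, n = 4 each). The likeness includes the genotype difference and is a description.

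The other genes of the pathway were not used to choose the members and were tested in the fit over all genes. Of 52 listed, 51 passed the low-count filter, 4 rose in HET (edgeR adjusted p under 0.05) and 0 fell, beside 2.62% of all genes higher and 0.368% lower. At an unadjusted edgeR p under 0.05 there were 12 higher and 6 lower. The DESeq2 Wald test called 9 higher and 0 lower, beside 911 higher and 289 lower among all 17913 genes. The 4 were the core protein genes Sdc2, Hspg2 and Col18a1 and the sulfotransferase gene Hs3st3a1. That count was 0 without HET library 1, HET library 3 or WT library 3, 1 without HET library 2, HET library 4 or WT library 1, and 7 without WT library 4, of which 6 were higher and 1 lower. It was 7 among libraries 1 and 3 of each genotype, 0 among libraries 2 and 4, 2 with no low-count filter, and 0 without WT libraries 1 and 3.

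Sdc2, the gene of the cell surface proteoglycan syndecan-2, rose from 32.6 ± 2.91 CPM in WT to 39.0 ± 1.56 CPM in HET mice (SD, n = 4 each; edgeR: adjusted p = 0.0366). Hspg2, which encodes the basement membrane proteoglycan perlecan, rose from 10.1 ± 2.07 CPM in WT to 14.9 ± 0.793 CPM in HET mice (SD, n = 4 each; edgeR: adjusted p = 0.0465). Col18a1, the gene of the matrix proteoglycan collagen XVIII, rose from 5.79 ± 1.56 CPM in WT to 10.3 ± 1.20 CPM in HET mice (SD, n = 4 each; edgeR: adjusted p = 0.0306). In WT library 4, the WT library richest in choroid plexus transcripts, Sdc2 and Col18a1 were the highest of the WT group, at 36.8 and 8.05 CPM. Hspg2 was not: it was at 11.6 CPM there and highest in WT library 2, at 11.9 CPM. Sdc2 and Col18a1 kept their calls in 1 of 8 fits with a library left out, the fit without WT library 4, and Hspg2 in 3 of 8, those without WT library 1, 2 or 4. Of 13 core protein genes, these 3 rose and 10 did not pass. Of the 13, 9 had a log2 fold change above 0 and 4 below it, and DESeq2 called 5 higher, beside 911 of all 17913 genes. Among those that did not pass was the agrin gene Agrn, at 258.6 to 269 CPM in HET and 267 to 283 CPM in WT. Another was Sdc1, at 1.01 to 1.61 CPM in HET and 0.326 to 1.02 CPM in WT (edgeR adjusted p = 0.0569). All listed choroid plexus and ependymal markers, and 4 of 8 meningeal ones, were higher in HET without overlap. Their values are given above, and their part was not tested.

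Among the sulfotransferases that act after the Ndst enzymes, 1 of 10 tested rose. Hs3st3a1, a late 3-O-sulfation gene, was at 0.830 ± 0.153 CPM in HET and 0.344 ± 0.136 CPM in WT (SD, n = 4 each; edgeR: adjusted p = 0.0288), on 19 to 77 counts per library. Its transcripts share 42.8% of their 50-base words with those of its paralog Hs3st3b1 or of F930015N05Rik, so its counts are uncertain. The call was lost in 4 of 8 fits with a library left out, those without HET library 1 or 3 or WT library 1 or 3. The 2-O-sulfation gene Hs2st1 had a log2 fold change of -0.03 ± 0.0522 (SE) and did not pass.

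The linker, breakdown and donor genes gave no call with edgeR. Of 7 linker genes 0 passed, with 2 lower at an unadjusted p under 0.05 and 0 called by DESeq2. B4galt7, the first galactose transferase of the linker, was at 18.4 ± 0.649 CPM in HET and 20.4 ± 0.816 CPM in WT (SD, n = 4 each; edgeR: adjusted p = 0.119). B3gat3, which adds the glucuronic acid that completes the linker, was at 104 ± 3.37 CPM and 109 ± 1.52 CPM (SD, n = 4 each; edgeR: adjusted p = 0.260). Of 9 genes that supply sugar and sulfate donors 0 passed, with 0 at an unadjusted p under 0.05 and 0 called by DESeq2. The lowest p there belonged to Slc35b2, a sulfate donor transporter gene, at 1.07-fold, and Uxs1, at 0.944-fold (edgeR adjusted p = 0.314 and 0.391).

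Of 12 editing and breakdown genes 0 passed in edgeR, with 5 higher and 2 lower at an unadjusted p under 0.05. DESeq2 called 3 of them higher, beside 911 of all 17913 genes. The lysosomal sulfatase gene Arsg was at 24.7 ± 2.26 CPM in HET and 16.8 ± 3.50 CPM in WT (SD, n = 4 each; edgeR: adjusted p = 0.0817). Sulf1, an extracellular enzyme gene that trims 6-O-sulfate, was singled out after its values were seen. It was at 7.33, 17.4, 8.16 and 28.0 CPM in WT libraries 1 to 4 and 44.7, 52.0, 46.5 and 45.3 CPM in HET libraries 1 to 4. The groups did not overlap, and the log2 fold change of 1.61 ± 0.422 (SE) did not pass (edgeR adjusted p = 0.115). It passed without WT library 4 (log2 fold change 2.09, edgeR adjusted p = 0.0291), within libraries 1 and 3 (2.57, 8.8e-06) and with DESeq2 (1.63, 0.0109), and was 1.10 within libraries 2 and 4 (0.434). Its order among WT libraries was that of the choroid plexus gene Ttr, at 44.9, 1280.0, 374 and 1884 CPM, and the part of that tissue was not tested. The paralog Sulf2 was at 137 to 161 CPM in HET and 156 to 168 CPM in WT, with a log2 fold change of -0.06 ± 0.0502 (SE).

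Chondroitin sulfate is made on the same linker by other enzymes and served as a comparison. Of its 16 listed synthesis genes 15 were tested and 0 passed in edgeR, with 4 lower at an unadjusted p under 0.05. DESeq2 called 2 of them lower, beside 289 of all 17913 genes. The chondroitin 4-sulfation gene Chst12 was at 18.9 ± 0.842 CPM in HET and 21.3 ± 0.668 CPM in WT (SD, n = 4 each; edgeR: adjusted p = 0.0827). Chsy3, a chondroitin polymerase gene, was at 7.31 ± 0.842 CPM and 9.12 ± 0.892 CPM (SD, n = 4 each; edgeR: adjusted p = 0.0995). Over these 15 genes the median log2 fold change was -0.032, beside -0.068 over the 10 members. Whether the members and these genes differ was not tested.

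**Figure D5:**
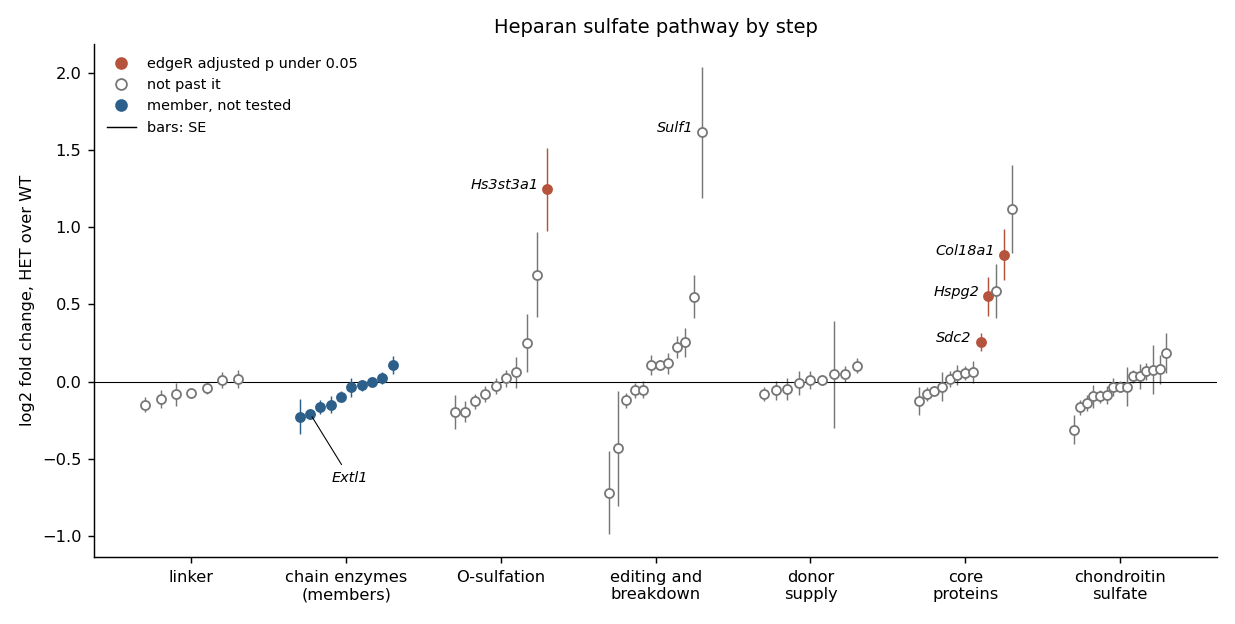
Log2 fold change of HET over WT (y axis, bars: SE) of the heparan sulfate genes by step and of the chondroitin sulfate genes, each point a gene with TMM scaling. The 4 filled red points, Hs3st3a1, Sdc2, Hspg2 and Col18a1, passed the edgeR test, and the 10 members (blue) lie between -0.23 and 0.11.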

How the data were processed

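The authors deposited 1 table holding read counts of 37310 Ensembl genes in 8 libraries, not normalised, with 92 ERCC spike-in rows that were left out of library sizes and tests. The submitters' processing notes list the aligner STAR 2.4.2a, the counter HTSeq, FastQC and DESeq2, and name mm9 and NCBIM37 as builds; their settings and annotation are not stated there. Per the labels' protocols, cDNA priming used both poly(A) tails and random primers. Symbols, exon and coding lengths came from GENCODE M21 on GRCm38, matched by identifier, so lengths may differ from the models counted.

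Counts were normalised by TMM, filtered with filterByExpr (minimum count 10, total 15) and compared with the robust quasi-likelihood F test of edgeR 4.0.16 in R 4.3.3, two-sided, Benjamini-Hochberg adjusted over 17913 genes, threshold 0.05; standard errors are the log2 fold change over the root of F. The model was tested on simulated data. The members and lists were chosen with earlier results of these data known. Named genes are the members, every gene of a list past the threshold or otherwise its 2 lowest p, and 5 genes nearest to Extl1 of at least 5 CPM. A gene that this rule names is not reported here. Alternatives were DESeq2 1.42.0 size factors and its Wald test, upper quartile scaling, spike-in scaling within each inferred mix, and 2 other filters. Further ones were each library left out, odd or even libraries alone, WT libraries 1 and 3 left out, and the replicate number as a block.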

Additional observations from a re-analysis of the deposited data

Results flagged for a closer look

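Col18a1 was at 12.1 CPM in HET library 3, while the other HET libraries lay between 9.47 and 9.85 CPM, so that its gap to them was 0.851 of the range of the group, above Dixon's critical value for 4 samples. It was the 1 such case in 46 groups of 4 looked at for the members and the other genes named, and chance gives about a share of 0.05 of groups. No member had such a library.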

How the results depend on the processing

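Over all genes, 535 passed (469 higher, 66 lower). The number ran from 171 without WT library 3 to 767 without WT library 4 over the fits with a library left out, and was 1200 with the DESeq2 Wald test (911 higher, 289 lower), 78 among even-numbered libraries, and 170 without WT libraries 1 and 3. Spike-in scaling changed the split to 779 higher and 11 lower. For the other heparan sulfate genes, 4 called, the number was 9 with the DESeq2 Wald test, 2 with no low-count filter, 7 and 0 among odd- and even-numbered libraries, 0 without WT libraries 1 and 3, and 0 to 7 with a library left out. For the chondroitin genes it was 2 with DESeq2. The median of the members, -0.068, was 0.027 with spike-in scaling and ran from -0.081 to -0.052 with a library left out. Spike-in scaling also turned B3gat3 to 0.020 and Uxs1 to 0.014. Over all 9 steps of the order of levels, those of Extl1 included, 8 passed in the main setting. With a library left out, 7 to 9 passed in the same direction. With coding length 5 did, among them Ndst3 over Ndst2, which had not passed in the main setting. These counts cannot be set beside that for the 7 pairs without Extl1. The causes were not tested. Same-numbered libraries did not deviate together (correlations across genes from -0.093 to 0.027), and with the replicate number as a block 406 genes passed, 3 of them other heparan sulfate genes, and the members' median was -0.069. Under the block Hspg2 (edgeR adjusted p = 0.0284) and Arsg (0.0130) passed, and Hs3st3a1 (0.0550), Sdc2 (0.0616) and Col18a1 (0.0515) did not.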
